A study of Drosophila melanogaster with 24 samples.

Results

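The measurement described here is the change in open chromatin when the histone gene His3.3A was removed from Drosophila wing discs whose other H3.3 gene, His3.3B, already carried K9R, the replacement of lysine 9 by arginine. It rests on 6 FAIRE libraries, 3 of H3.3B-K9R and 3 of the double mutant labelled H3.3-K9R, out of 24 libraries in the series, 12 of them FAIRE. For each region the log2 fold change of H3.3B-K9R over wild type was subtracted from that of the double mutant over wild type, so that the value is the double mutant over H3.3B-K9R. All 19738 regions of the authors' deposited tables were members, and 19733 of them carried adjusted p-values and were tested.

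H3.3 is the replacement form of histone H3, put into chromatin outside S phase, and in Drosophila His3.3A and His3.3B encode the same protein. Methylation of lysine 9 of H3 is bound by HP1 and marks the repeat-rich chromatin near centromeres, the fourth chromosome, the Y and telomeres, and an arginine there cannot take up lysine methylation or acetylation. FAIRE recovers DNA that formaldehyde did not link to nucleosomes, so a high count marks open chromatin such as promoters and enhancers.

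The tissue was the imaginal wing disc, taken from larvae of instar 3 at the wandering stage. The wild type was yw, the H3.3A null lacked His3.3A, H3.3B-K9R carried the K9R codon in the endogenous His3.3B gene and kept His3.3A, and the double mutant joined both changes. The double mutant therefore had no H3.3 with lysine 9, and H3.3B-K9R discs had it from His3.3A alone. No genotype is labelled as carrying a change in its canonical histone genes. The labels name no sex, no allele and no number of discs per library, and do not say that libraries came from separate crosses, so errors may hold only technical spread. They do not say either how far the stocks otherwise differed, so a change that came with a stock and a change caused by its H3.3 mutation cannot be told apart. The deposited tables hold no value of a single library, so levels below are fitted group levels, in normalised read counts per region, and errors (±) are standard errors on the log2 scale. The mean normalised count had a median of 85.9 over regions and ran from 3.74 to 24771.

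Most regions differed little between the double mutant and H3.3B-K9R, and those that changed did so in similar numbers upwards and downwards. The difference had an absolute value under 0.5 on the log2 scale in 96.7% of tested regions, and its 10th and 90th percentiles were −0.22 and 0.25. A two-sided z test on the difference over the root of the summed squared errors, with Benjamini-Hochberg adjustment over all regions, called 193 regions (0.978%) at an adjusted p under 0.05. Of these 96 were higher in the double mutant (0.486%) and 97 lower (0.492%), and 121 had an absolute difference of 1 or more. Wild type enters both fold changes and cancels, so the summed error is too large, with a median of 0.23. The error without wild type, which the table of the double mutant over the H3.3A null allowed to be computed, had a median of 0.16 and called 618 regions (3.13%), 330 higher (1.67%) and 288 lower (1.46%). Calls below use the summed error unless stated.

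His3.3A was examined first, as a check on the labels. The region over its start (2L, 5055001 to 5055291), which also overlaps CG14036, had fitted levels of 85.8 in wild type, 34.6 in the H3.3A null, 101 in H3.3B-K9R and 27.2 in the double mutant. Both genotypes without His3.3A were thus low and both that keep it were high. The double mutant stood at −1.89 ± 0.26 relative to H3.3B-K9R (z test, adjusted p = 2.3e-10). The 4 regions assigned to His3.3B (X, gene at 9152523 to 9156669) stood at −0.03, 0.21, 0.04 and −0.01, with 0 called by either error.

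The fall was not limited to the gene. From 5043036 to 5059898 on 2L, 6 consecutive regions were all lower in the double mutant than in H3.3B-K9R, by −0.60 to −1.89. They were chosen as the unbroken run around His3.3A that the authors' deposited table calls lower in the H3.3A null. They lie at CG31650 and genes overlapping it, at CG9121, at the translation factor gene eIF3h and its neighbour senju, at His3.3A, and at Rpn11, which encodes a deubiquitinase of the proteasome. The summed error called 2 of the 6 and the error without wild type all 6. In the authors' deposited table of the H3.3A null over wild type, which called 8.8% of all regions, the same 6 ran from −0.75 to −1.31. In that of H3.3B-K9R over wild type they lay between −0.07 and 0.23, with 0 called. The other 10 regions within 50 kb ranged from −0.46 to 0.35, with 0 called by either error. Along the 2L arm the share called was 5.56% within 0.1 Mb of the gene (2 of 36), 1.83% from 0.1 to 0.5 Mb (2 of 109) and 1.89% from 0.5 to 1 Mb (2 of 106). It was 0.348% from 1 to 2 Mb (1 of 287), 0.224% from 2 to 5 Mb (2 of 894), 0.463% from 5 to 10 Mb (3 of 648) and 1.18% beyond (10 of 844). The bins within 1 Mb thus hold 2 calls each. Of all called regions 31, or 16.1%, lay on 2L, which held 15.3% of tested regions.

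**Figure D1:**
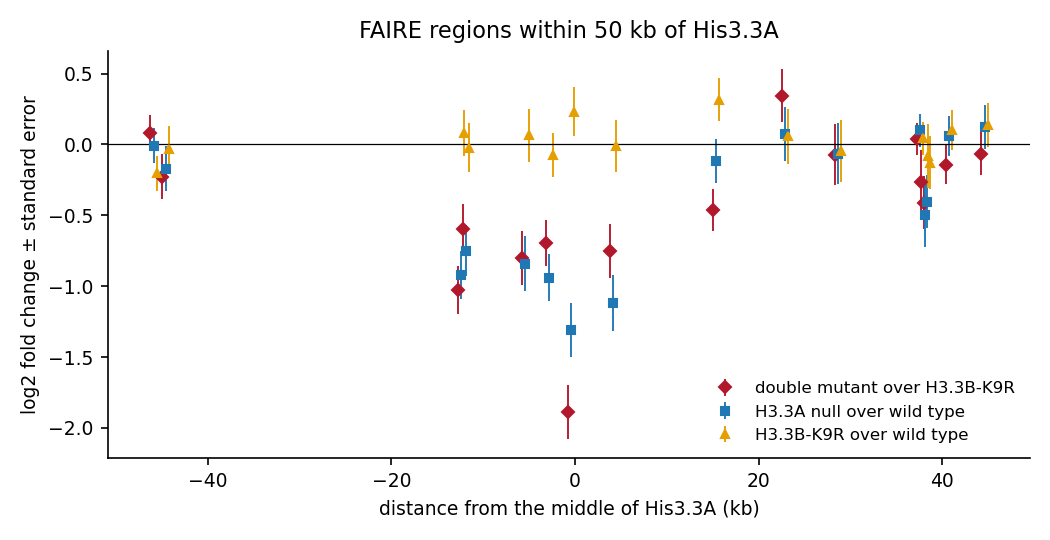
Log2 fold change (± standard error) of each FAIRE region within 50 kb of His3.3A against its distance from the middle of the gene, for the double mutant over H3.3B-K9R (error without wild type), the H3.3A null over wild type and H3.3B-K9R over wild type. The 6 regions from −12.4 kb to 4.17 kb lie between −0.60 and −1.89 for the first comparison, while H3.3B-K9R over wild type stays between −0.07 and 0.23 there.

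The loss of His3.3A could be compared with its loss from wild type, because the H3.3A null over wild type shares no library with the double mutant over H3.3B-K9R. All come from one model of 12 libraries, however, with common normalisation. The authors' deposited table called 1736 regions in the H3.3A null, 4.79% of tested regions higher and 4% lower. Of the 193 regions called here 96 were called there with the same sign, which is 49.7% of the one list and 5.53% of the other. Higher in both were 69 regions and lower in both 27. Another 43 were called with opposite signs, 35 of them lower here and higher in the H3.3A null. The remaining 54 were called here only. Over all tested regions 55.7% had the same sign, and the differences correlated across regions with a Pearson r of 0.22 and a Spearman rho of 0.20. Regions are not independent, many are neighbours, and no test was made of these values. Among the 1736 regions of the H3.3A null 63.4% had the same sign here. The 946 that the authors' deposited table calls higher there had a median of 0.69 in the H3.3A null and of 0.13 here, and the 790 called lower a median of −0.75 there and −0.03 here.

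Whether the effect differed between the genetic backgrounds was tested directly, by a z test on the double mutant over the H3.3A null minus H3.3B-K9R over wild type, tables that share no library. The effect differed in 957 regions (4.85%), more positive on H3.3B-K9R in 491 (2.49%) and more negative in 466 (2.36%). It differed in 27 of the 96 called regions of the same sign and in 43 of the 54 called here only. Those called with opposite signs differ by definition. Of the 1597 regions called in the H3.3A null and not here it differed in 720. The other 877 were called on one genetic background only and passed no test of a difference.

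**Figure D2:**
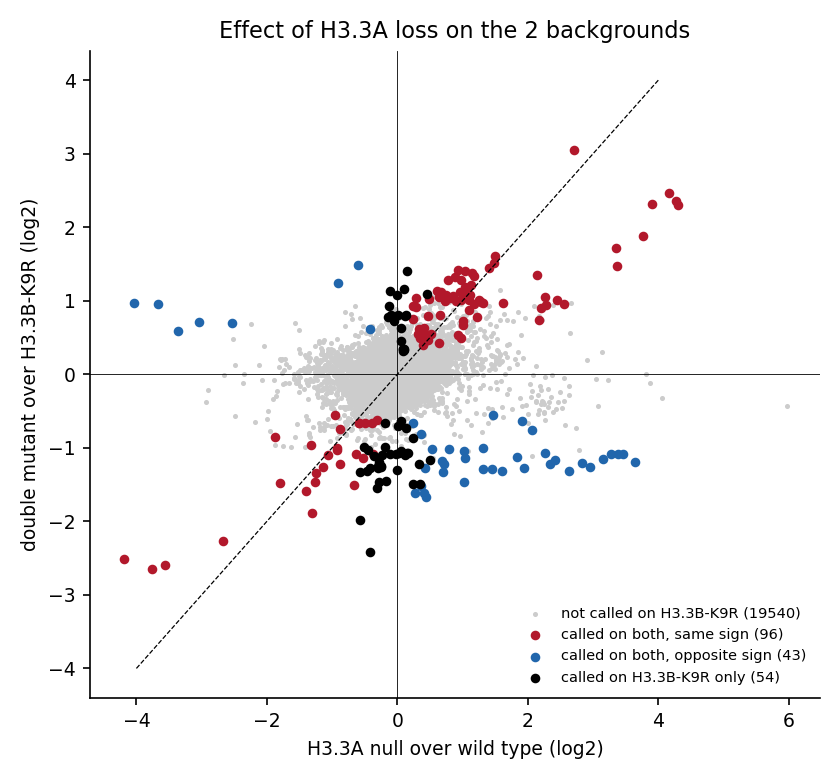
Effect of H3.3A loss on the H3.3B-K9R background (double mutant over H3.3B-K9R, y axis, log2) against its effect on wild type (H3.3A null over wild type, x axis, log2) for 19733 regions; the dashed line marks equal effects. Coloured points are the 193 called regions, of which 96 have the same sign on both axes and were called in both, 43 were called with opposite signs and 54 were called on H3.3B-K9R only.

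Of the 96 regions higher in the double mutant, 69 had also risen in the H3.3A null. Their median was 1.01 here and 1.01 there in the authors' deposited table. The effects differed between backgrounds in 19 of the 69, and in 15 of those the rise was larger on wild type. Near the centromere of 2L, the region with the largest difference of all (2L, 23331959 to 23332950, nearest gene CR42530) had fitted levels of 96.5 in wild type, 628 in the H3.3A null, 85.7 in H3.3B-K9R and 708 in the double mutant. Both genotypes without His3.3A were high and both with it were low. The difference was 3.05 ± 0.19, an 8.26-fold rise, and 2.70 in the authors' deposited table of the H3.3A null, and the difference between the effects did not pass the test (0.34 ± 0.18, z test, adjusted p = 0.453).

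flam, the source of the piRNAs that silence gypsy-family retrotransposons in somatic cells of the ovary, had 61 tested regions on X from 21631891 to 21790731, with 3 called higher and 0 lower. The strongest (21711449 to 21714438) had levels of 117 in wild type, 2103 in the H3.3A null, 140 in H3.3B-K9R and 774 in the double mutant. It rose by 2.47 ± 0.16 on H3.3B-K9R, less than the 4.17 of the H3.3A null in the authors' deposited table, and the difference of −1.70 ± 0.15 passed the z test (adjusted p = 6.5e-29). The adjacent region (21714581 to 21715839) rose by 0.96 here against 2.56, and the one at 21728091 by 1.01 against 1.26 in the authors' deposited table. The rest of the locus ranged down to −0.46, and the median of its 61 regions was 0.13.

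Several further genes had higher regions. AGO3, an Argonaute of the germline piRNA cycle, had 1 of 5 regions higher (3L, 23571790 to 23572117), with levels of 141 in wild type, 307 in the H3.3A null, 143 in H3.3B-K9R and 333 in the double mutant. That is a difference of 1.22 ± 0.17 here and 1.12 in the authors' deposited table of the H3.3A null. bol, a translational regulator of male meiosis (3L), had 2 of 4 regions higher. The stronger one, at 9104198, had levels of 85.5, 162, 68.6 and 184 in the same order of genotypes, and the differences were 1.42 and 1.40. Sox100B, a transcription factor of testis development (3R), had 5 of 10 regions higher, by 0.72 to 0.98, and from 1.01 to 1.31 in the authors' deposited table of the H3.3A null. In all 5 Sox100B regions both genotypes without His3.3A exceeded both that keep it, and none of the effects passed the test of a difference between backgrounds. nAChRalpha1, a nicotinic acetylcholine receptor subunit (3R), had 3 of 6 regions higher, by 1.17 to 1.28, beside 0.78 to 1.07 in the authors' deposited table of the H3.3A null. lovit, a histamine transporter of photoreceptor synapses (3L), had 1 of 35 regions higher, and the median difference of the 35 was 0.13. The called region (25287238 to 25291580) had levels of 220 in wild type, 2258 in the H3.3A null, 297 in H3.3B-K9R and 978 in the double mutant. It rose by 1.72 ± 0.14 here and by 3.36 in the authors' deposited table of the H3.3A null, and the difference of −1.64 ± 0.13 passed the z test (adjusted p = 2.7e-33). MFS17, a transporter of the major facilitator family (2R), had 2 of 6 regions higher, the larger from 511 in wild type, 1129 in the H3.3A null and 464 in H3.3B-K9R to 1206 in the double mutant (1.38 ± 0.12). lncRNA:CR46489 had 4 of 10 regions higher, by up to 1.07, and CG17684 had 3 of 36, by up to 1.01, both in 2R near the centromere. Open chromatin at these genes was measured, and their RNA in discs was not.

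**Figure D3:**
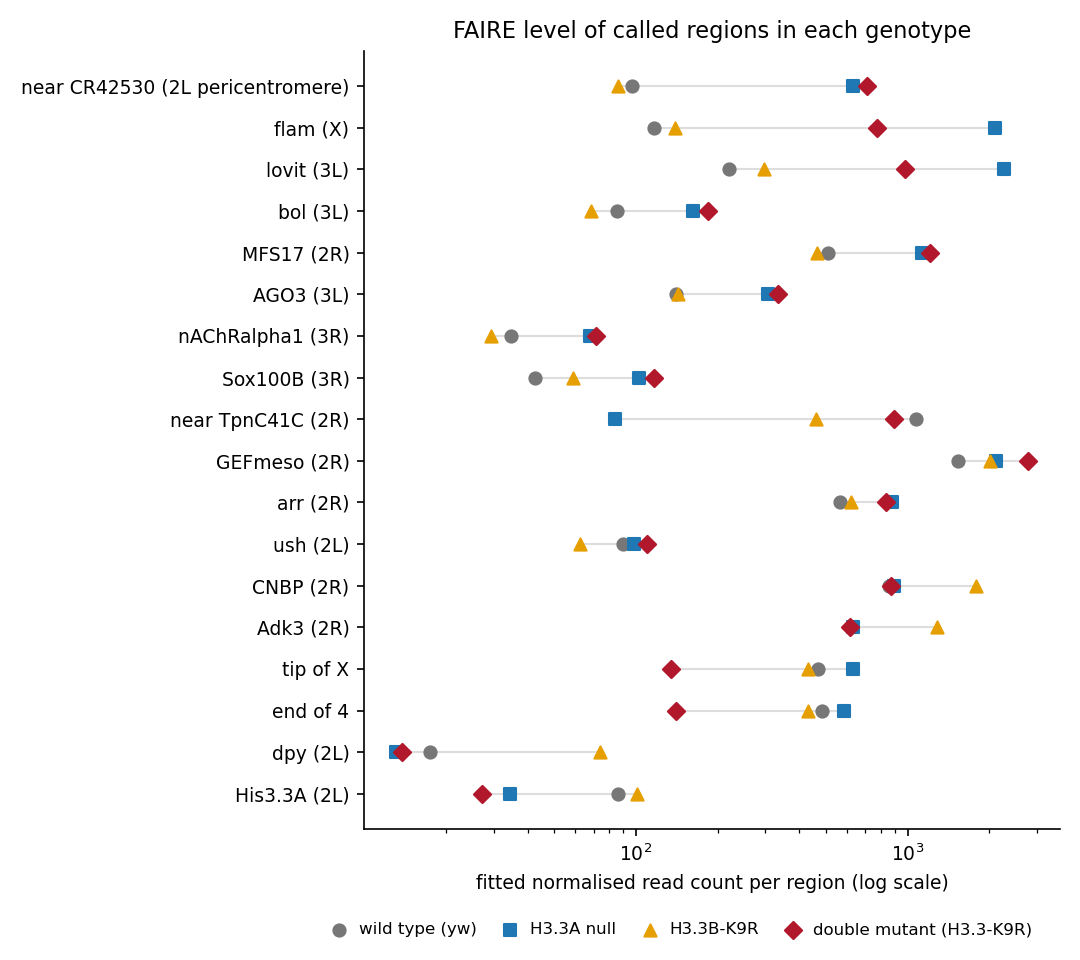
Fitted normalised read count (log axis) in each of the 4 genotypes for 1 called region at each gene or place on the vertical axis, 3 libraries per genotype and no value per library. At flam the levels are 117 in wild type, 2103 in the H3.3A null, 140 in H3.3B-K9R and 774 in the double mutant; the double mutant is the highest of the 4 at GEFmeso (2777) and the lowest at the tip of X (135).

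By location, calls were spread unevenly. Sequence near centromeres, bounded at 22 Mb on 2L, 5.4 Mb on 2R, 23 Mb on 3L, 4.6 Mb on 3R and 23 Mb on X, had 33 regions higher and 2 lower of 1362 (2.57% called, median difference 0.11). Of the 33 higher regions 26 were also higher and 4 lower in the H3.3A null in the authors' deposited table. Over the whole class that table called 111 regions higher and 262 lower (median −0.09), the opposite balance to the one here. Most of the 33 regions higher here lay on 2R, with 20 higher of 387, and on 2L, with 8 of 100. Chromosome 4 had 0 higher and 19 lower of 100 (19%). Unplaced scaffolds had 15 higher and 18 lower of 1402 (2.35%), and the Y had 1 higher and 2 lower of 85. On the arms 0.234% of regions of 3R and 0.294% of 3L were called, against 0.752% of 2L, 0.936% of 2R and 0.937% of X. The arms of X and chromosome 4 were mostly lower (26 of 32 and 19 of 19), as was 2R (20 of 30), while 2L, 3L and 3R together had 31 higher and 10 lower. The median difference was 0.21 over the Y, −0.03 over the X arm and −0.24 over 8 mitochondrial regions. The sex of the discs is not labelled, and its part in these medians was not tested. The labels do not say how reads that map to many places were handled, which touches scaffolds, the Y, centromeres and chromosome ends alike.

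**Figure D4:**
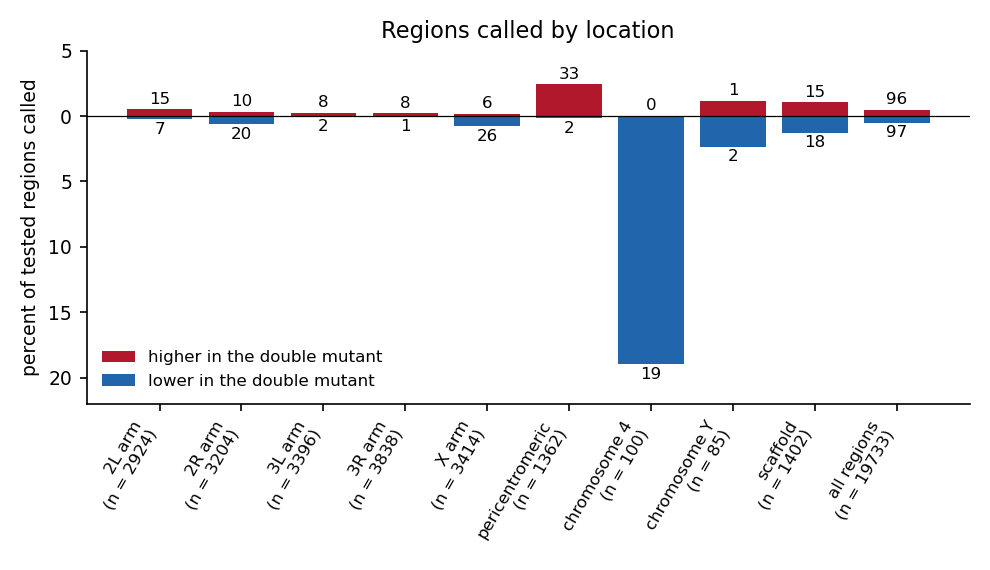
Percent of tested regions called higher (upwards) and lower (downwards) in the double mutant than in H3.3B-K9R for each part of the genome, with the number of called regions at each bar and of tested regions below it. Sequence near centromeres has 33 higher and 2 lower, chromosome 4 has 0 and 19, and the X arm 6 and 26.

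The lower regions of X and chromosome 4 sat at chromosome ends. These groups were found by joining called regions less than 50 kb apart, so the counts describe them and test nothing. At the tip of the X (768 to 114502) 26 of 57 regions were lower, 0 were higher, and 56 of 57 differences were negative. At the end of chromosome 4 (1278779 to 1344079) 19 of 26 were lower and all 26 were negative, while the other 74 regions of that chromosome had 0 called and a median of −0.12. In called regions the double mutant had a median of 45.3% of the H3.3B-K9R level at the X tip (31.5% to 64.9%) and of 41.1% at the end of 4 (20.8% to 55.0%). One region of the X tip (80332 to 81539) had levels of 467 in wild type, 632 in the H3.3A null, 430 in H3.3B-K9R and 135 in the double mutant, and one of chromosome 4 (1292931 to 1293988) had 486, 585, 430 and 140. In both regions the double mutant alone was low. The differences were −1.67 ± 0.17 and −1.62 ± 0.14. Loss of His3.3A from wild type went the other way there, 0.44 and 0.27 in the authors' deposited table, and the effects differed by −2.10 ± 0.17 and −1.88 ± 0.14 (z test, adjusted p = 5.2e-34 and 6.2e-38).

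Other regions of the X tip were raised in every mutant and least in the double mutant. The region from 55762 to 57526 had levels of 48.9 in wild type, 511 in the H3.3A null, 556 in H3.3B-K9R and 263 in the double mutant. In the authors' deposited tables the H3.3A null was called higher than wild type in 40 of the 57 regions of the X tip and lower in 4, and H3.3B-K9R (6.53% of all regions called, 3.95% higher and 2.58% lower) in 25 and 6. The double mutant (7.92% called, 4.71% higher and 3.21% lower) was called higher there in 16 and lower in 20. Effects differed between backgrounds in 47 of the 57 regions, and in 20 of the 26 on chromosome 4. Within 100 kb of the end of each arm, X had 25 of 51 regions lower, 2R 5 of 22 lower and 1 higher, 3L 1 of 21 lower and 2 higher, 2L 1 of 27 lower, and 3R 0 of 17 called. The lower region of 2L lies at l(2)gl, a tumour suppressor of cell polarity next to the telomere (18026 to 19027), with levels of 237 in wild type, 181 in the H3.3A null, 293 in H3.3B-K9R and 185 in the double mutant (−0.66 ± 0.15).

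**Figure D5:**
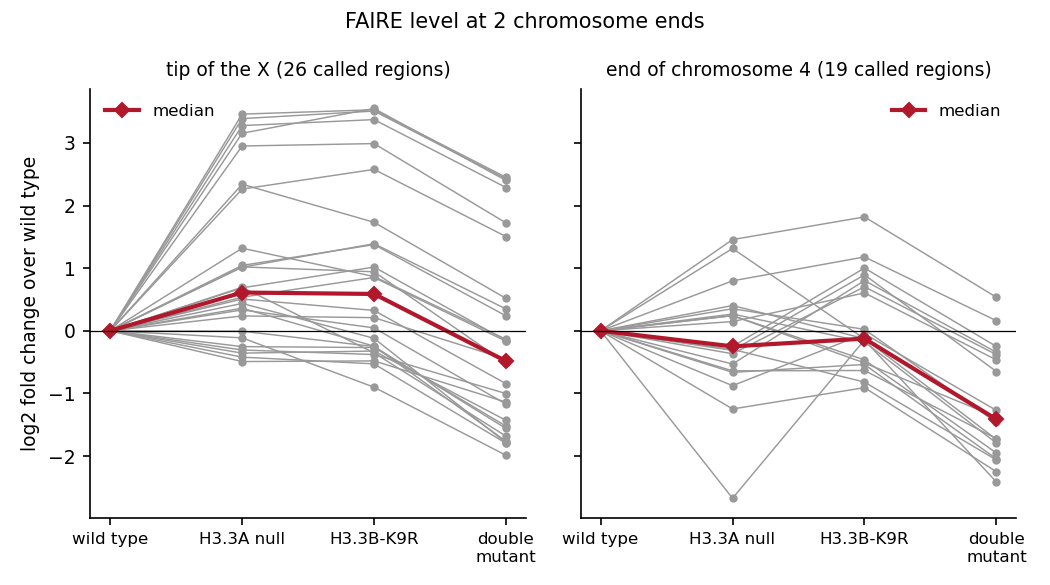
Log2 fold change over wild type, from the authors' deposited tables, in each genotype for the called regions at the tip of the X (26) and the end of chromosome 4 (19); each grey line joins the values of 1 region, the thick line the medians, and the order of genotypes on the axis is arbitrary. That every line falls from H3.3B-K9R to the double mutant follows from the choice of called lower regions; the single mutants lie above wild type in some of them and below it in others.

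Some differences arose because H3.3B-K9R, and not the double mutant, stood apart from wild type. In the authors' deposited tables, 83 of the 193 regions were called over wild type in the double mutant only, 44 in H3.3B-K9R only, 65 in both and 1 in neither. On the arms 16 lower regions were raised in H3.3B-K9R alone, 13 of them on 2R. At CNBP, a zinc finger protein gene that overlaps CG3788 (2R, 22932954 to 22935878), levels were 858 in wild type, 895 in the H3.3A null, 1788 in H3.3B-K9R and 867 in the double mutant. At Adk3, an adenylate kinase gene (2R, 7245112 to 7247237), they were 620, 632, 1288 and 612. Only H3.3B-K9R stood out, at about the same step in both, and the differences were −1.05 ± 0.10 and −1.07 ± 0.12. The neighbouring Gadd45 (−0.63) and, 3.4 Mb away, 3 regions over Git, the Elongator subunit gene Elp2 and CG12934 (−0.99 to −1.09) were likewise highest in H3.3B-K9R. In dpy, which encodes a giant protein of the apical extracellular matrix (2L), 2 of 16 regions were lower. The one with the larger difference, at 4541509, had levels of 17.5 in wild type, 13.1 in the H3.3A null, 73.8 in H3.3B-K9R and 13.8 in the double mutant (−2.42 ± 0.34). The region at 4534511 stood at −1.28 ± 0.22.

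At the canonical histone genes on 2L 9 of 64 regions assigned to them were higher, by 0.45 to 1.08, and 0 were lower. Over the 65 regions of the array the authors' deposited table called H3.3B-K9R higher than wild type in 19 and lower in 11 (median 0.004). The 9 regions were among the 11 lower ones. In the 9 regions the median was −0.68 in H3.3B-K9R over wild type and 0.14 in the double mutant over wild type, in the authors' deposited tables. The region at His2A and His2B copies at 21518334 had levels of 732 in wild type, 893 in the H3.3A null, 438 in H3.3B-K9R and 898 in the double mutant (1.03 ± 0.11), and that at the His1 copy CG31617 had 207, 207, 108 and 228 (1.08 ± 0.18). With the error without wild type, 15 regions of the list were higher and 8 lower, so copies did not move one way. The copies are nearly identical and their single values are uncertain. At Msp300, a nesprin that anchors nuclei, which overlaps Cyp28d2 (2L, 5206760 to 5209763), levels were 1397 in wild type, 744 in the H3.3A null, 328 in H3.3B-K9R and 780 in the double mutant (1.25 ± 0.12). H3.3B-K9R was lowest there too, but the H3.3A null was also below wild type. Near the troponin C gene TpnC41C (2R, 5049137 to 5051810) levels were 1074 in wild type, 84.0 in the H3.3A null, 459 in H3.3B-K9R and 891 in the double mutant. Loss of His3.3A went with a rise of 0.96 ± 0.14 on H3.3B-K9R and with −3.68 on wild type in the authors' deposited table, an effect that differed by 4.63 ± 0.15 (z test, adjusted p = 7.0e-192).

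Another kind of region rose stepwise with each mutation. On the arms they were chosen as higher here, raised over wild type in every mutant, and not called different between backgrounds. Regions raised in every mutant whose effects differed were left out, such as X 21532800 with −1.88. The choice gave 8 regions. That the z test called a difference between backgrounds in 0 of them follows from it. The median in the authors' deposited tables was 0.44 in the H3.3A null and 0.38 in H3.3B-K9R, and 0.88 in the double mutant, with a median difference of 0.51 here. They had a median length of 4802 bp. GEFmeso, an exchange factor for Ral GTPase (2R, 18576045 to 18582038), had levels of 1531 in wild type, 2111 in the H3.3A null, 2005 in H3.3B-K9R and 2777 in the double mutant (0.47 ± 0.11). CG32816 (X, 428635 to 434668) had 1520, 2038, 1977 and 2714 (0.46 ± 0.11), and CG12535 (X, 3415144 to 3421056) 1981, 2604, 2678 and 3514 (0.39 ± 0.10). Wild type was lowest and the double mutant highest at all 3, and the differences between backgrounds were 0.01 at GEFmeso and 0.03 at CG32816. Over the 8 regions these differences ran from −0.33 near isoQC to 0.14 near CG4597, and the choice limits their size. Long arm regions were called more often in general, 18 of 49 (36.7%) at 2000 bp or more against 0.402% of 12676 under 500 bp, and they carry more reads.

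Over 19 gene lists 12 of 1526 regions were called (0.786%), a share near the 0.978% over all regions, of which 9 were canonical histone regions and 1 was His3.3A. The other two lay at wing genes. Selector transcription factors had 1 of 270 regions called, at ush, a Friend of GATA cofactor of thorax patterning (2L, 485612 to 486036), with levels of 89.4 in wild type, 98.3 in the H3.3A null, 62.6 in H3.3B-K9R and 110 in the double mutant (0.81 ± 0.22, z test, adjusted p = 0.0274). Of its 21 regions this was the single call. Morphogen and signalling genes had 1 of 383 regions called, at arr, the LRP co-receptor of Wingless (2R, 13462765 to 13464780), with 565, 876, 617 and 831 in the same order (0.43 ± 0.12, z test, adjusted p = 0.0347). At arr both genotypes without His3.3A were high. With the error without wild type, 3 signalling regions were lower as well, at the Wingless receptor gene fz2 (−0.69), the JAK/STAT inhibitor gene Socs36E (−0.45) and the Notch ligand gene Ser (−0.33).

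Lists of chromatin genes had 0 regions called by the summed error. Hox genes (59 regions) had a median of −0.02, Polycomb and Trithorax genes (125) −0.03, histone chaperones and variants (24) −0.05, and the genes of H3K9 methylation and HP1 (25) −0.03, and the error without wild type called 0 as well. In these lists an unadjusted p under 0.05 (z test) was reached by 0 regions with the summed error. With the error without wild type it was reached by 3, 4, 1 and 1. Over all 19733 tested regions it was reached by 830 with the summed error and by 2160 with the error without wild type. Ecdysone response genes (206), proneural genes (28), stress, death and regeneration genes (87), replication genes (80) and ribosomal protein genes (110) also had 0 called, with medians from −0.09 to −0.01. An unadjusted p under 0.05 (z test) was reached there by 3, 0, 1, 1 and 2 with the summed error. With the error without wild type the counts were 16, 3, 3, 3 and 6. The error without wild type called 1 ecdysone region lower, at Hr51 (−0.68), 1 at Jra, the fly Jun (−0.94), and 1 at RpS14a (−0.47). The wing markers nub, vg, ap, sd, rn and Dll all had open regions, 4 to 8 each with median wild-type levels of 78.0 to 192, with 0 called and every difference between −0.39 and 0.26. Among markers of other cells, muscle precursors had 28 regions, trachea 17, neurons 9, haemocytes 4 and fat body 3, with 0 called by the summed error and 1 neuronal region, at para, by the other.

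Called regions lay less often within genes than tested regions did, but the chromosome ends weigh on this count. On chromosomes with annotation 61 of 160 called regions overlapped a gene (38.1%), against 74.7% of tested regions. The 160 include the 26 called regions at the X tip and the 19 at the end of chromosome 4. None of those overlapped a gene. Leaving those regions out would narrow the difference without closing it, and the exact share was not computed. Called regions were also grouped, with 133 of 193 in 31 groups of neighbours less than 50 kb apart, and 26 of these groups moved in a single direction.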

How the data were processed

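FAIRE was measured in 12 libraries, 3 per genotype, read from the labels. Per the submitters' processing notes, Bowtie2 2.3.2, SAMtools 1.5, MACS2, bedtools 2.2.25.0 and DESeq2 were used with build dm6. How reads were counted, and what was done with those mapping to many places, is not given in the sources used here. Per the file headers, the authors' DESeq2 tables hold the mean normalised count over all libraries (a signal), a log2 fold change with its standard error, the Wald statistic (a score), and a p-value with its Benjamini-Hochberg adjusted p-value. Fold changes appear shrunk towards 0, which understates changes of low regions. They hold no column for a single library, so depth and spread per library are unknown.

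The tables were additive to within 1e-06. Differences, z tests and group levels were computed with pandas 2.3.3, numpy 2.4.6 and scipy 1.17.1, and the test was checked on simulated data. Group levels came from the mean and the 3 fold changes over wild type. Regions took the gene they overlap or the nearest within 5 kb, from the Release 6 RefSeq table, without strand. The distance limit was wider than 5 kb for the counts of regions at AGO3, bol, Sox100B, nAChRalpha1, lovit, MFS17, lncRNA:CR46489, CG17684 and dpy. Genes called "nearest" in the text may lie beyond either limit. Positions are 1-based. The regions named are those at His3.3A and His3.3B, the 12 highest and 12 lowest called, and the 8 strongest in both backgrounds. Also named are the 6 with the largest absolute test statistic for a difference between backgrounds, and up to 4 per gene list. The last are the 4 highest and 4 lowest near centromeres. Other genes, and every group of neighbours, were picked after their values were seen. Members and lists were chosen with earlier results of these data known. Alternatives were the error without wild type, an adjusted p under 0.01, a mean count of at least 50, an absolute difference of at least 1, centring, a gene distance of 1 kb, and boundaries moved by 1 Mb. RNA tables were not used.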

Additional observations from a re-analysis of the deposited data

Results flagged for a closer look

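At the regions below the effect of H3.3A loss differed between the H3.3B-K9R and wild-type backgrounds by the z test at an adjusted p under 0.05. Each value is the log2 effect on H3.3B-K9R minus that on wild type, and there are 28 such regions among the 44 named.

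Among regions higher in the double mutant, the value was −1.70 at flam (X, 21711449), −1.88 near lncRNA:CR46472 (X, 21532800) and −1.64 at lovit. On unplaced scaffolds it was −1.91, −1.59, −2.003, −1.89 and, at a region lowest in H3.3B-K9R, 2.08. Regions at 4 places of the histone array gave 0.75 (21518334), 0.69 (21523180), 0.62 (21528012) and 1.08 (21422289), and ush gave 0.67.

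Among regions lower in the double mutant, the value was −2.002 at dpy, −1.41 at 6373294 on 2R between Pld and jing, −2.10 at the X tip (80332), and −1.88, −2.01 and −1.23 at the end of chromosome 4 (1292931, 1312113 and 1280012). It was positive where the H3.3A null lost even more signal, 0.97 at the first region of the Y and 1.11 and 1.68 on an unplaced scaffold assigned to the Y.

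The 6 regions with the largest absolute statistics in the z test included nAChRalpha3 (X, 8294268) with −6.40 and a scaffold with −4.83. The others gave 4.63 and 3.95 near TpnC41C, −4.04 near CG9380 (2R, 25268594) and −4.47 at the X tip (55762). These are not the 6 largest values, since another region of the X tip (76844) had −4.54. At nAChRalpha3, a nicotinic receptor subunit gene, fitted levels were 23.2 in wild type, 1448 in the H3.3A null, 1858 in H3.3B-K9R and 1376 in the double mutant. There wild type alone was low, and the double mutant over H3.3B-K9R was −0.43 ± 0.24 and not called.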

How the results depend on the processing

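No paired analysis was possible because the tables hold no values per library, and leaving out single libraries could not be run for the same reason. With the error without wild type, 618 regions were called, 330 higher and 288 lower, 248 with the same sign as in the H3.3A null, 122 near centromeres (35 with the summed error) and 33 in gene lists (12). Requiring an absolute difference of at least 1 left 121, 45 of them higher. Boundaries 1 Mb closer to the centromere left 21 pericentromeric calls. On the arms without the X tip and the histone array, an alternative chosen after seeing the data, 68 were called, 38 higher and 30 lower. With the 3 errors over wild type summed, effects differed between backgrounds in 608 regions in place of 957. Of the 44 named regions 43 kept their direction and call with the error without wild type, while nAChRalpha3 (−0.43) was called lower (z test, adjusted p = 5.15e-06). That error is never larger and the difference is the same, so for called regions this was fixed in advance. All 44 kept direction and call when the median difference was subtracted, but it was only −0.0007 and could move little. The 40 with a mean count of at least 50 kept them too. Few reads limit regions such as the dpy one at 4541509, with a mean count of 29.5.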
